A study of Homo sapiens with 8 samples.

Results

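TTR, HTR2C, CLIC6, PRLR, AQP1 and FOLR1 are 6 genes that mark the epithelium of the choroid plexus, and they were taken by name from the 60286 gene rows of a count matrix over 43693 single cells. The cells came from neural cultures derived from H1, a line of human embryonic stem cells in long use, and grown flat (2-D) or as organoids (3-D). They were barcoded by repeated splitting and pooling, in which a first barcode marks the culture and later ones the cell, and the pool was sequenced as 8 sublibraries. Each cell name carries 1 of 46 culture tags, and the tags fall into 9 culture arrangements, here written as the tags spell them. Organoid cells were freed with papain from 2 or 3 organoids at a time; how the flat cultures were dissociated is not stated.

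Arrangements 2DMono, 2DCocu, 3DMono and 3DFusi hold the treated cultures. The tags read AcDop, AcMor, AcCoc and Vehic; the series names dopamine, morphine, cocaine and untreated cultures, which fits these abbreviations, although the labels do not define them. The 2DMono and 3DMono arrangements had 2 tags each of AcDop, AcMor and Vehic, 6 in all. The 2DCocu arrangement had 4 tags each of AcCoc, AcMor and Vehic, 12 in all, and 3DFusi had 4, 3 and 3 of the same, 10 in all. The other 5 arrangements, 2DProto2Fjo, 2DProto3Wu and 2DProto4Nic with 2 tags each and 3DProto1For and 3DProto2Xia with 3 each, carry no treatment in their tags. All cultures share the same stem cell line. Nothing says whether tags of a group were separate cultures, so the p-values below measure only the spread between tags, which may be technical.

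The choroid plexus is a sheet of secretory epithelium in the brain ventricles. It arises next to the roof plate of the dorsal midline, makes cerebrospinal fluid by moving ions and water, and carries hormones and vitamins between blood and fluid. TTR encodes transthyretin, the carrier of thyroxine and of the retinol-binding protein that the epithelium secretes, and hepatocytes make it as well. HTR2C encodes a serotonin receptor that is dense on this epithelium and is also found on neurons, and PRLR encodes the prolactin receptor. CLIC6 encodes a chloride intracellular channel protein, AQP1 a water channel of the apical membrane, and FOLR1 a folate receptor that takes folate into the fluid.

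In GRCh38.p14, TTR lies on chromosome 18 at 31591877 to 31598821 and HTR2C on chromosome X at 114584086 to 114910061. CLIC6 is on chromosome 21 at 34668994 to 34718223 and PRLR on chromosome 5 at 35048756 to 35230487. AQP1 is on chromosome 7 at 30911853 to 30925516 and FOLR1 on chromosome 11 at 72189709 to 72196323. The gene spans differ widely, from 6615 bases for FOLR1 to 325976 for HTR2C, and the deposited counts are not divided by length, so levels are compared within a gene and not between genes.

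RefSeq's promoter table for GRCh38.p14 holds windows of 300 bases around a start site for 3 of the 6 genes. Those of HTR2C (chrX:114583836-114584135, plus strand) and AQP1 (chr7:30911603-30911902, plus strand) are shown because both genes were called between flat and organoid cultures over all cells in at least 1 pair; the third gene, PRLR, was called only without the choroid plexus-like cells, and its windows are not printed.
HTR2C: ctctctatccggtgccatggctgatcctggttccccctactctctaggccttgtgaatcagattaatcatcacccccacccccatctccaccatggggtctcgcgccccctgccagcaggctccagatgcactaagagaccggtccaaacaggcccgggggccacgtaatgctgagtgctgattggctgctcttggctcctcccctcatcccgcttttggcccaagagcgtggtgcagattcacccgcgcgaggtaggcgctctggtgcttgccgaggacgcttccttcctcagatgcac
AQP1: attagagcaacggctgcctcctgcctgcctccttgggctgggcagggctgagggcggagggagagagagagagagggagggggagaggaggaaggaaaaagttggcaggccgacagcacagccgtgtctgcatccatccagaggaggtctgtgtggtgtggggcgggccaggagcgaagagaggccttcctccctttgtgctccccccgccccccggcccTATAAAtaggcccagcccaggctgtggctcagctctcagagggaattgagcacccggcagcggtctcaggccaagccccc
Capitals mark a match to TATAAA, the TATA box sequence, in the AQP1 window, starting 30 bases before the start site. TAATCC, a sequence bound by OTX2, a transcription factor of the developing choroid plexus, was searched in the same windows. Both motifs were searched on both strands and do not overlap each other. The HTR2C window held neither motif and the AQP1 window held no TAATCC. Among 35116 promoters of 300 bases, 6.36% held TAATCC and 11.5% held TATAAA. A match or its lack describes these letters only.

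The matrix held 793413159 deposited counts, with a median of 12775 per cell (3374 to 511101), and the tags held 317 to 1959 cells and 3624668 to 58777177 counts. A cell is called positive for a gene here when its count is at least 0.5, since the deposited counts are estimates that need not be whole. The 8 sublibraries are aliquots of the same pool; in them TTR ranged from 17.4 to 37.6 CPM, the counts of a gene scaled to the same total for each group of cells, and HTR2C from 196 to 308. No combination of the 3 cell barcodes was shared between tags or repeated within a sublibrary, while 2393 of 41192 combinations occurred in more than 1 sublibrary. Cells called as doublets made up 3.66% of the total and were kept.

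HTR2C was counted in the most cells and FOLR1 in the fewest. HTR2C had 186655 counts and 8514 positive cells, 19.5% of the total (95% exact binomial interval 19.1 to 19.9). PRLR had 11261 counts in 4281 cells (9.80%), and TTR 20114 counts in 3074 cells (7.04%, interval 6.80 to 7.28). CLIC6 had 6615 counts in 1673 cells (3.83%), AQP1 660 counts in 532 cells (1.22%) and FOLR1 132 counts in 129 cells (0.295%). These shares depend on depth and on the counting rule: when every cell was thinned to 3000 counts, TTR was left in 2.31% of cells, HTR2C in 7.69% and AQP1 in 0.124%. Intervals and shares cover counting error only. TTR counts were concentrated: the 100 cells with the most TTR held 52.1% of all its counts, and the highest cell held 748.

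To place the counts among cells, the cells were clustered without the 6 genes. Of 38 clusters, 1 was called choroid plexus-like from 15 companion markers, of which 9 reached the threshold (OTX2, LMX1A, MSX1, TRPM3, ENPP2, SLC4A5, SLC13A4, F5 and RBM47). It held 1339 cells, 3.06% of the total, with a median of 18143 counts per cell against 12641 elsewhere. The summed level of the 15 companion markers was 7242 CPM inside and 469.4 CPM outside, and 15 of 15 were higher inside. TRPM3 alone made up 5350 CPM of the inside sum. KCNE2 (0.374 CPM), KL (1.35), KCNJ13 (2.17) and TMEM72 (2.68) were low inside too, in 1.57 to 6.65% of its cells. The 8 markers of ciliated cells also summed higher inside (543.6 against 89.46 CPM, 8 of 8 higher), and so did the 8 of pigment epithelium (210.9 against 50.29 CPM, 8 of 8 higher). The 8 markers of liver, a tissue that also makes TTR, and endoderm summed to 1.051 CPM inside and 1.807 CPM outside, with 2 of 8 at 0 inside. The cluster is a class of cells by these markers, and the levels of the 6 genes in it are a description without a test.

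All 6 genes had a higher CPM inside this cluster than in all cells outside it, but they were divided between the 2 sides very differently. For TTR, the cluster held 69.4% of the counts and 623 of 3074 positive cells, at 411.3 CPM and with 46.5% of its cells positive. For HTR2C it held 66.2% of the counts, at 3637 CPM and with 66.1% of its cells positive. CLIC6 had 48.8% of its counts there (95.2 CPM, 36.5% of cells) and FOLR1 66.4% (2.59 CPM, 5.97% of cells). Of PRLR counts 9.46% were in the cluster (31.4 CPM, 17.6% of cells), and of AQP1 counts 21.4% (4.16 CPM, 6.42% of cells). The water channel and the prolactin receptor were therefore counted mainly in other cells, whereas most transthyretin, serotonin receptor and folate receptor counts came from the cluster. Within the cluster 343 of 1339 cells had none of the 6 genes and 9 had all of them.

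**Figure D1:**
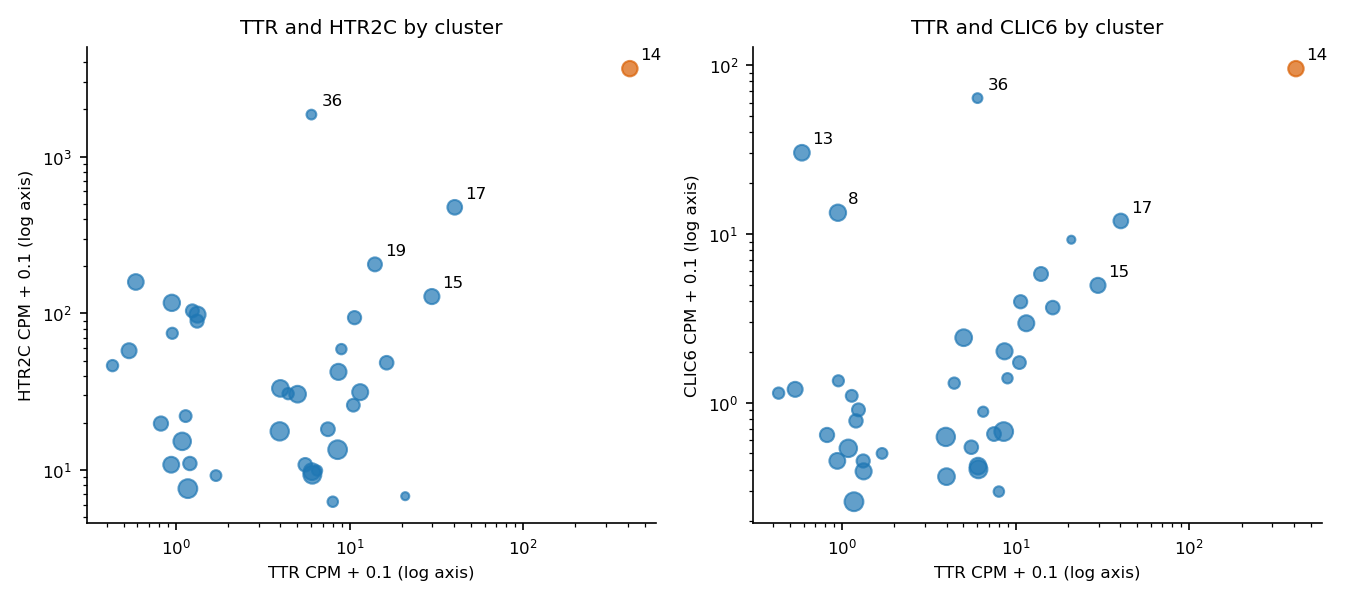
HTR2C (left) and CLIC6 (right) against TTR in the 38 clusters (CPM of the cluster's summed counts + 0.1, log axes); each point is 1 cluster, larger for more cells, orange for the choroid plexus-like cells, and numbers name the clusters highest for either gene. Cluster 14, the choroid plexus-like cells, is highest for all 3 genes, while cluster 36 (both panels) and cluster 13 (named on the right) have TTR of at most 5.93 CPM.

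After the choroid plexus-like cells, HTR2C and CLIC6 were highest in the same cluster and TTR in another. Cluster 36 (216 cells, 99.5% from 2DCocu, with LMX1B, NR5A2 and LMX1A among its leading genes) reached the threshold for 4 of the 15 companion markers (OTX2, LMX1A, TRPM3 and RBM47), 4 of 8 ciliated and 5 of 8 mesenchymal ones, and stayed unnamed. It had HTR2C at 1852 CPM in 82.4% of its cells and CLIC6 at 63.6 CPM in 29.6%, but TTR at 5.93 CPM. Cluster 13 (1427 cells, 82.5% from 2DMono, led by CCN2, CXCL14 and EDN1 among others) held 22.5% of all CLIC6 counts at 30.1 CPM, with HTR2C at 158.4 CPM and TTR at 0.488 CPM. TTR was counted in 4.17% of the cells of cluster 36 and in 1.61% of those of cluster 13, so both clusters of flat cultures had the receptor and the channel protein in many cells and transthyretin in few.

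PRLR and AQP1 peaked in cluster 37, which had 99 cells, 20.2% of them called doublets, and CD93, APOB, PECAM1 and HNF4A among its leading genes. PRLR stood at 78.0 CPM there and at 37.3 CPM in cluster 10, GABAergic neuron-like cells led by LHX8, which held 10.6% of all PRLR counts. AQP1 stood at 5.64 CPM in cluster 37 and at 3.15 CPM in cluster 24, with HAND2-AS1 among its leading genes. After the choroid plexus-like cells, TTR was highest in cluster 17 (1085 cells, with RELN, LHX1 and TP73 among its leading genes), at 40.2 CPM beside 474.5 CPM of HTR2C, and 49.2% of that cluster came from 2DProto2Fjo. Within it TTR stood at 55.2 CPM in the cells of 2DProto2Fjo, 18.6 in 3DMono, 11.7 in 3DFusi, 5.21 in 2DProto4Nic and 2.20 in 2DCocu, with no count in 46 cells of 2DMono. Doublets were called for 8.76% of cluster 17 and for 18.4% of cluster 15, the next in TTR level. FOLR1 came next in cluster 8, at 0.277 CPM in 8 cells.

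TTR counts spread far beyond the cells that held the other genes, but as small counts. Of the 3074 TTR-positive cells, 2451 lay outside the choroid plexus-like cluster, and 1455 of those had none of the other 5 genes. The median positive cell had 6 TTR counts inside the cluster and 1 outside. Inside, 57.0% of positive cells had 5 counts or more, and 21.7% had a single count. Outside, 75.8% had a single count and 134 cells had 5 or more, up to 156; these 134 cells held 52.2% of the outside counts. In these 134 cells the 15 companion markers of choroid plexus summed to 3190 CPM, against 469.4 CPM in all cells outside the cluster, and 15 of 15 were higher. TRPM3 alone made up 2357 CPM of the 3190, and KCNE2, KCNJ13, KL and TMEM72 were each below 1 CPM. The 8 liver and endoderm markers summed to 29.3 against 1.81 CPM, with 5 of 8 higher and 2 at 0; AFP stood at 18.7 against 0.439 CPM but was found in 2.99% of the 134 cells, and HNF4A stood at 7.64 against 0.753 CPM and was found in 5.22%. The 8 ciliated markers summed to 180 against 89.5 CPM (7 of 8 higher) and the 8 of pigment epithelium to 114 against 50.3 CPM (6 of 8 higher). Those of neurons (2963 against 3467 CPM, 0 of 8 higher), mesenchyme (726 against 1084 CPM, 1 of 8) and cycling cells (340 against 517 CPM, 0 of 8) summed lower, whereas those of muscle (396 against 273 CPM, 3 of 8) and of other epithelia (28.1 against 24.6 CPM, 6 of 8) summed higher. The part of these other cell types in the TTR counts was not tested. Among the 1455 cells with no other member, 84.5% had a single count, 10 had 5 or more and the highest had 29. Cells with TTR and none of the other 5 genes outside the cluster held 9.03% of all TTR counts.

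The share of TTR-positive cells went up with the number of other members in the cell, up to 4, on both sides. Among choroid plexus-like cells it was 11.1% of 386 cells with none of the other 5 genes, 41.1% of 406 with 1, 70.3% of 340 with 2, 81.9% of 149 with 3, 91.5% of 47 with 4 and 81.8% of 11 with all 5. Outside, it was 4.67% of 31173 cells with none, 7.34% of 9274 with 1, 13.6% of 1658 with 2, 34.8% of 233 with 3 and 56.3% of 16 with 4. Depth moved with this order: outside, the median cell had 11500 counts where none of the other genes was found and 53842 where 3 were. After thinning to 3000 counts the outside shares, in the same classes of cells, were 1.23%, 1.88%, 3.08% and 9.87% for none to 3, and the inside shares were 5.18%, 23.2%, 43.5% and 53.0%. The part of depth in the classes themselves was not tested.

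**Figure D2:**
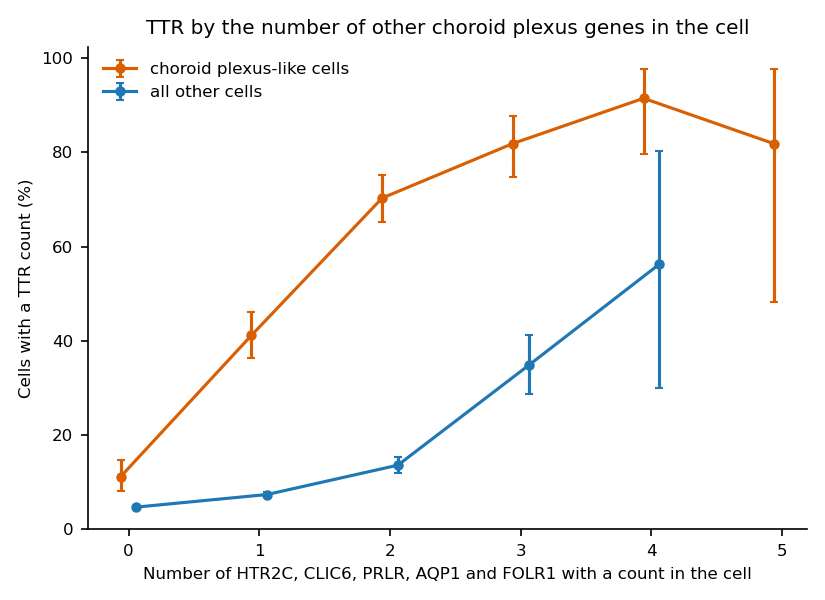
Share of cells with a TTR count (%, vertical axis) by how many of HTR2C, CLIC6, PRLR, AQP1 and FOLR1 have a count in the same cell, for choroid plexus-like cells and all other cells; bars are 95% exact binomial intervals. The share runs from 11.1% to 91.5% in choroid plexus-like cells and from 4.67% to 56.3% in the others.

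Pairs of genes showed the same pattern. Among choroid plexus-like cells TTR was counted in 64.4% of HTR2C-positive cells and in 11.7% of HTR2C-negative ones. Outside the cluster the shares were 10.5% and 4.76%. For CLIC6 outside the cluster, TTR was found in 17.0% of positive and 5.47% of negative cells. Conversely, 93.7% of CLIC6-positive choroid plexus-like cells had HTR2C, against 50.2% of the CLIC6-negative ones.

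Neuron-like clusters give the share in cells that are not choroid plexus epithelium, and it differed between them. In cluster 0, excitatory neuron-like cells almost all from flat cultures, 1.12% of 2953 cells had a TTR count (interval 0.770 to 1.57), at a median depth of 9120 counts. In cluster 1, excitatory neuron-like cells of which 58.4% came from 3DMono, it was 10.1% of 2891 cells (9.03 to 11.3) at 13977 counts. Flat cultures were not uniform in this. Cluster 20, excitatory neuron-like cells 96.1% from flat cultures, had 10.5% of 851 cells at 17321 counts. Cluster 18, also excitatory neuron-like and 99.6% from flat cultures, had 1.44% of 969 cells. Thinned to 3000 counts, the shares were 0.203% in cluster 0, 2.87% in cluster 1, 2.12% in cluster 20 and 0.103% in cluster 18. Within cluster 1 the level, pooled over tags and not tested, was 7.37 CPM in 3DMono and 12.1 CPM in 3DFusi. It was 4.39 CPM in 2DProto4Nic, 2.87 in 3DProto1For and 1.60 in 3DProto2Xia.

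The ratio of HTR2C to TTR counts ran from 0.323 to 325 over the 38 clusters. It was highest in clusters 13 (325) and 36 (312), both almost all from flat cultures, followed by clusters 29 (140), 8 (138) and 16 (132). These high ratios divide by few TTR counts, in 23, 9, 5, 18 and 6 positive cells in the same order, so their ranking is uncertain. It was 8.84 in the choroid plexus-like cells, 11.8 in cluster 17, 4.31 in cluster 15, 2.48 in cluster 27, 1.59 in cluster 1 and 0.323 in cluster 37. The ratios were not tested. Whether the TTR counts outside the cluster were made by those cells or taken up as free RNA was not tested.

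Across all 46 tags TTR spanned 0.427 to 155 CPM. In 2DProto2Fjo its level was 53.2 and 102 CPM in the 2 tags, a mean of 77.8 ± 34.8 (SD). The 3DMono tags gave 22.1 and 63.2 CPM (AcDop), 1.42 and 5.14 (AcMor) and 155 and 23.5 (Vehic). The 3DFusi tags gave 40.1, 8.92, 112 and 34.0 CPM (AcCoc), 3.16, 9.59 and 2.02 (AcMor) and 109, 2.81 and 5.76 (Vehic). Both organoid arrangements therefore held tags near 2 CPM and tags above 100 CPM.

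TTR in the 6 tags of 2DMono was 0.427 and 2.81 CPM (AcDop), 0.461 and 0.858 (AcMor) and 0.999 and 0.796 (Vehic). In 2DCocu the 12 tags ran from 0.478 to 2.78 CPM with a median of 0.955. Those flat cultures were low in all tags, and their highest tags overlapped the lowest organoid tags. In order of the mean, 2DProto2Fjo (77.8), 3DMono (45.1), 3DFusi (32.7) and 2DProto4Nic (16.1 CPM) came first, followed by 3DProto1For (4.58), 3DProto2Xia (2.82), 2DCocu (1.26), 2DProto3Wu (1.16) and 2DMono (1.06). Neighbours in this order overlapped except at 1 step: the 2 tags of 2DProto4Nic, 14.8 and 17.4 CPM, lay above the 3 of 3DProto1For, of which the highest was 9.25.

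**Figure D3:**
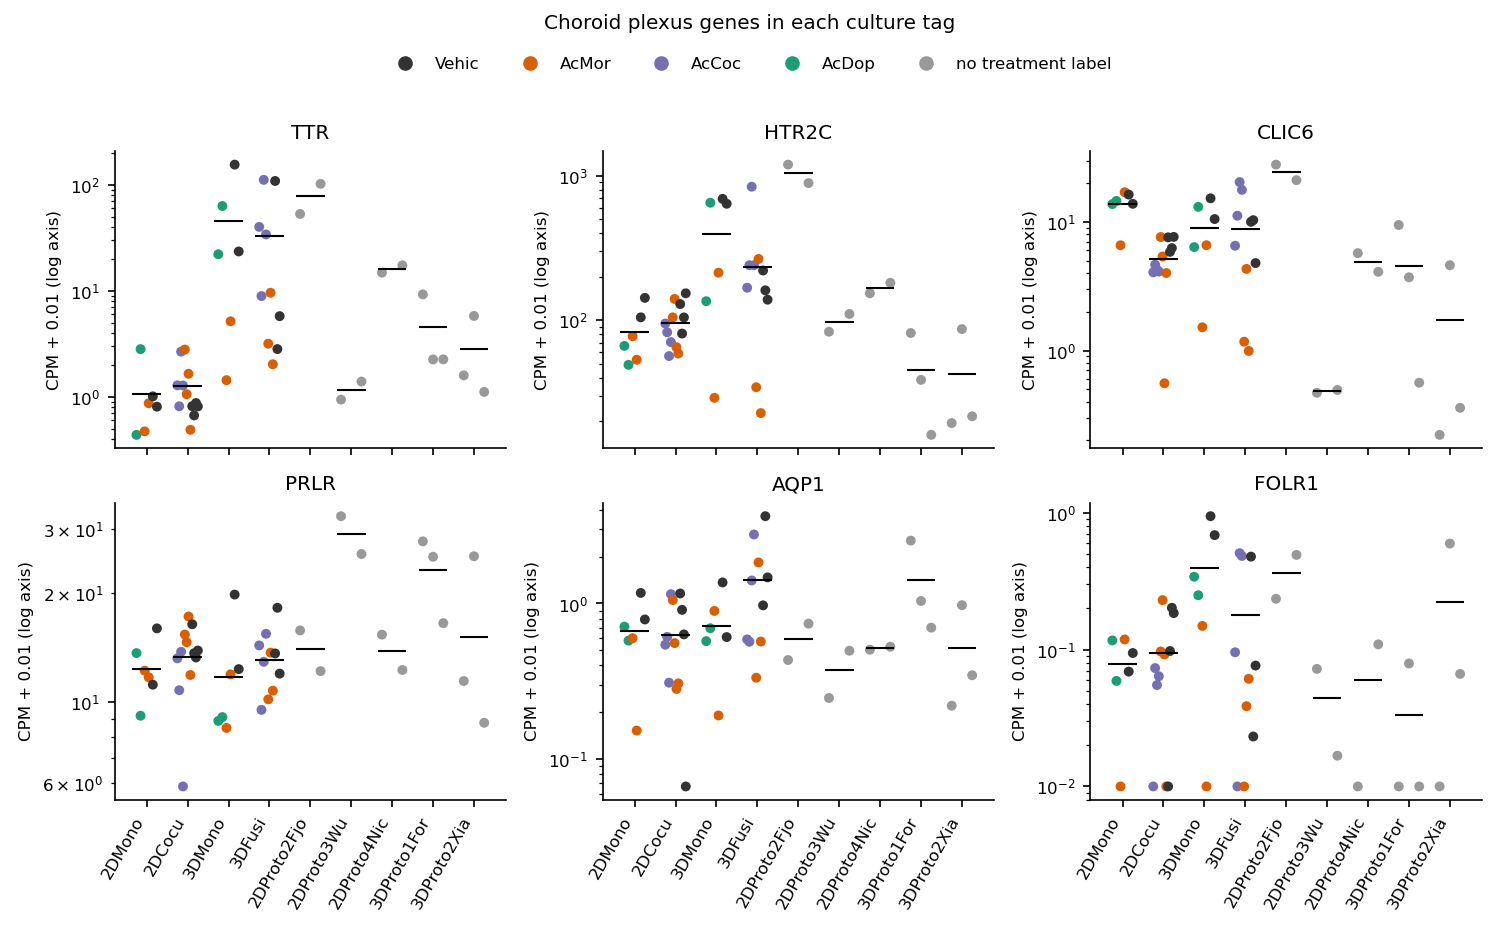
Level of each gene (CPM + 0.01, log axes, vertical) in every culture tag, by culture arrangement (horizontal); each point is 1 tag, coloured by treatment, the horizontal bar is the mean of the arrangement, and points at 0.01 are tags with no count. TTR spans 0.427 to 155 CPM, and PRLR stays between 5.85 and 32.6 CPM.

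HTR2C was lowest in organoids without a treatment in their tags, at 16.05 CPM in a tag of 3DProto1For and 19.38 CPM in one of 3DProto2Xia. Its 2 tags of 2DProto2Fjo gave 1193 and 889 CPM, above all tags of 3DMono, which were 135 and 650 (AcDop), 29.0 and 213 (AcMor) and 691 and 639 (Vehic). The 10 tags of 3DFusi ran from 22.7 to 839 CPM. The 12 tags of 2DCocu lay between 56.4 and 153 CPM, and the 6 of 2DMono were 66.3 and 49.0 (AcDop), 77.4 and 53.2 (AcMor) and 105 and 143 (Vehic). The lowest tags of both organoid arrangements thus lay below all tags of 2DMono and 2DCocu, and the highest lay above them.

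CLIC6 followed another order. After 2DProto2Fjo (27.9 and 21.1 CPM) came 2DMono, with 13.7 and 14.6 CPM (AcDop), 6.57 and 17.0 (AcMor) and 16.3 and 13.8 (Vehic). The 3DMono tags gave 6.36 and 13.1 CPM (AcDop), 1.51 and 6.58 (AcMor) and 15.3 and 10.5 (Vehic). The 3DFusi arrangement ran from 0.982 to 20.4 CPM, 2DCocu from 0.546 to 7.64 CPM, and 2DProto3Wu was lowest with 0.460 and 0.484 CPM. All neighbours after the first overlapped.

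PRLR varied least. Arrangement means ran from 11.8 CPM in 3DMono to 29.1 CPM in 2DProto3Wu, and all neighbours in the order overlapped. AQP1 means ran from 0.362 CPM in 2DProto3Wu to 1.41 CPM in 3DProto1For and 1.40 CPM in 3DFusi, where single tags lay between 0.324 and 3.62 CPM. FOLR1 had a highest mean of 0.386 CPM, in 3DMono, where its tags gave 0.330 and 0.239 CPM (AcDop), 0.139 and 0 (AcMor) and 0.931 and 0.675 (Vehic), and many tags held no count of it.

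In the counts summed over a tag, more choroid plexus-like cells and more RNA per cell cannot be told apart, so the share of these cells and the level in them are both given. In 3DMono 0.870 to 6.39% of a tag's cells were choroid plexus-like (mean 3.61 ± 2.05, SD, n = 6), against 0 to 1.07% in 2DMono (0.379 ± 0.467, n = 6). In 3DFusi it was 1.03 to 11.7% (3.93 ± 3.43, n = 10), against 0 to 0.445% in 2DCocu (0.163 ± 0.131, n = 12). The 2DMono and 3DMono tags overlapped; the 3DFusi and 2DCocu tags did not. In the arrangements without a treatment in their tags, the flat 2DProto2Fjo had the highest share of all 9, 23.2% of 2447 cells, and held 42.4% of the whole cluster. The organoids 3DProto1For and 3DProto2Xia had 1.35% and 1.01%, each resting mostly on 1 tag: 3DProto1For had 3.79%, 0.457% and 0% in its 3 tags, and 3DProto2Xia had 4.12% in tag 2 and 0% in the other 2. The flat 2DProto4Nic had 1.14% and 2DProto3Wu 0 of 2272 cells, which allows up to 0.132%. For the 2 treated pairs, the mean of the differences within treatments was 3.23 percentage points for the first pair (exact two-sided permutation test of tags within treatments, p = 0.00926, the smallest that 216 arrangements allow). It was 3.53 points for the second (exact permutation p = 1.17e-05, the smallest that 85750 arrangements allow). With Benjamini-Hochberg adjustment over the 4 such tests made, the second became 4.67e-05 and the first stayed at 0.00926. All 4 tests take tags as exchangeable within treatments, and take no account that same-numbered tags of 3DFusi, and more weakly 3DMono, deviated together.

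Levels within the choroid plexus-like cells varied widely too. Pooled over tags and without a test, TTR in them stood at 710 CPM in 3DMono (232 cells), 564 in 3DFusi (414 cells) and 220 in 2DProto2Fjo, against 49.0 in 2DMono (28 cells) and 86.5 CPM in 2DCocu (17 cells). HTR2C stood at 5587, 3469 and 3252 CPM against 643 and 3335 CPM in the same order. In the 14 tags with at least 20 such cells, TTR ran from 21.0 CPM in Vehic tag 1 of 2DMono to 1403 CPM in Vehic tag 1 of 3DMono, with a median of 176. HTR2C ran from 441 to 7090 CPM with a median of 3448. CLIC6 varied the least of these 3, from 58.1 to 145.8 CPM with a median of 108. PRLR ran from 2.92 to 101 CPM, and AQP1 and FOLR1 from 0 to 16.0 and from 0 to 14.4 CPM.

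In cells outside the cluster with none of the other 5 genes, TTR was also higher in the organoids of both treated pairs. The arrangements without a treatment in their tags were not part of this comparison. The level was 0.546 to 23.8 CPM in 3DMono (7.95 ± 8.89, SD, n = 6) and 0.369 to 0.732 CPM in 2DMono (0.495 ± 0.169, n = 6), with an exact permutation p of 0.00926, again the smallest possible and the same after adjustment. In 3DFusi it was 1.01 to 22.8 CPM (5.71 ± 7.75, n = 10) and in 2DCocu 0.267 to 2.33 CPM (0.919 ± 0.596, n = 12), with an exact permutation p of 0.000921 and 0.00184 after adjustment. Tags of the 2 formats overlapped in both pairs, and the differences within treatments were unequal. In the first pair they were 13.2 CPM with AcDop, 8.23 with Vehic and 0.926 with AcMor. In the second pair they were 7.11 CPM with AcCoc, 6.31 with Vehic and 0.171 with AcMor. Whether the differences vary with treatment was not tested.

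Within each treated arrangement, TTR in cells outside the cluster with none of the other 5 genes was set against the share of choroid plexus-like cells, and none of the 4 relations passed the adjustment over them. In 2DMono Pearson's r was 0.968 and Spearman's rho 0.870 over 6 tags (exact permutation p 0.0306 and 0.0333, adjusted 0.0611 and 0.133), and r was 0.652 without the 2 tags farthest from the median share. In 3DFusi r was 0.727 and rho 0.539 over 10 tags (permutation p 0.0228 and 0.117, adjusted 0.0611 and 0.182), and r was 0.561 without 2 tags. In 3DMono r was 0.476 and rho 0.714 over 6 tags (exact permutation p 0.369 and 0.136, adjusted 0.493 and 0.182), and r was 0.779 without 2 tags. In 2DCocu r was 0.125 and rho 0.127 over 12 tags (permutation p 0.688 and 0.698, the same after adjustment), and 0.418 without 2.

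**Figure D4:**
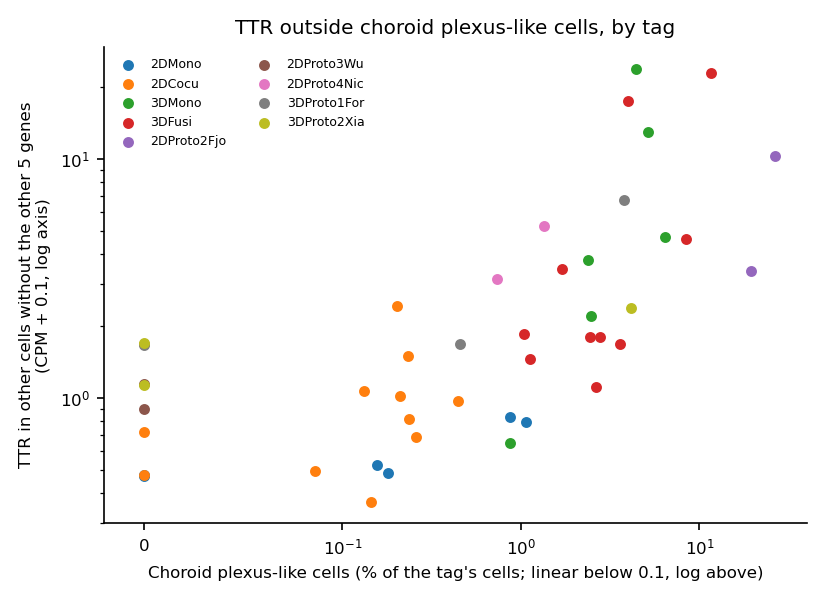
TTR level in cells outside the choroid plexus-like cluster with none of the other 5 genes (CPM + 0.1, log axis, vertical) against the share of choroid plexus-like cells in the tag (%, horizontal axis, linear below 0.1 and log above), 1 point per tag of all 9 arrangements. Tags of 2DMono and 2DCocu lie at shares of at most 1.07% and TTR of at most 2.33 CPM, while 3DMono and 3DFusi tags spread over both axes.

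The comparison of organoids with flat monocultures asks how the 6 genes differ with culture format. In 3DMono against 2DMono, edgeR's quasi-likelihood test on tag sums with treatment as a covariate called 8297 of 21862 genes at an adjusted p of 0.05, 38.0% of those tested. Of the 6 genes, 5 passed the filter on low counts and 3 were called: TTR and HTR2C rose and CLIC6 fell. TTR was 45.1 ± 58.3 CPM (SD) in the 6 organoid tags and 1.06 ± 0.89 in the 6 flat ones. The log2 fold change that edgeR fitted with treatment as a covariate was 4.84 ± 0.82 (SE, adjusted p = 0.000724 by edgeR). HTR2C was higher by 1.84 ± 0.54 (adjusted p = 0.0205), and CLIC6 fell by 0.97 on the log2 scale (SE 0.35, adjusted p = 0.0457). PRLR (-0.27, adjusted p = 0.237) and AQP1 (-0.03, adjusted p = 0.966) did not pass, and FOLR1 was below the filter. A share of 3 in 5 stands against 38.0% of all genes. None of the 5 had tags without overlap, against 21.5% of all genes, and their median log2 fold change was -0.03 beside 0.03 over all genes tested.

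The TTR call held when any 1 of the 12 tags was left out (3.83 to 5.42), but the HTR2C and CLIC6 calls did not. HTR2C lost its call without AcDop tag 1 or 2 or Vehic tag 2 of 2DMono or AcMor tag 2 of 3DMono (1.69 to 1.82, adjusted p 0.0547 to 0.0761). CLIC6 lost its call without AcDop tag 1 or 2, AcMor tag 2 or Vehic tag 1 of 2DMono or AcDop tag 1 or Vehic tag 2 of 3DMono (-1.01 to -0.70, adjusted p 0.0608 to 0.0944). In 3DMono against 2DMono, CLIC6 also lost its call with doublets removed (-0.93, adjusted p = 0.0524) and with Vehic tags alone (-0.47, adjusted p = 0.302). Without either AcDop tag of 2DMono only 1 member was called. DESeq2 called TTR, HTR2C, CLIC6 and also FOLR1. With Vehic tags alone TTR differed by 6.27 with an adjusted p of 0.0700.

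The fused organoids were compared with the flat co-cultures in the same way. In 3DFusi against 2DCocu 10987 of 22511 genes were called, 48.8%, and 3 of the 5 members that passed the filter rose, where 26.1% of all genes were called higher. TTR was 32.7 ± 43.0 CPM in 10 tags and 1.26 ± 0.75 in 12, and its log2 fold change in the edgeR fit was 4.37 ± 0.68 (adjusted p = 1.7e-05). HTR2C was higher by 1.00 ± 0.39 (adjusted p = 0.0390) and AQP1 by 1.08 ± 0.38 (adjusted p = 0.0225). CLIC6 (0.37, adjusted p = 0.416) and PRLR (-0.08, adjusted p = 0.625) did not pass. None of the 5 had tags without overlap, against 6.45% of all genes; the members' median was 1.00 and that of all genes 0.04. TTR stayed called without any 1 of the 22 tags, from 3.35 to 4.57, whereas HTR2C lost its call without any 1 of 10 tags (0.72 to 0.99, adjusted p 0.0515 to 0.152). These were the 4 AcCoc tags, AcMor tags 3 and 4 and Vehic tag 2 of 2DCocu, and AcCoc tag 3, AcMor tag 3 and Vehic tag 1 of 3DFusi. AQP1 lost its call without AcMor tag 3 (0.90, adjusted p = 0.0595) or Vehic tag 3 (0.84, adjusted p = 0.0737) of 3DFusi, and without the former only 1 of the 6 genes was called. In 3DFusi against 2DCocu, HTR2C also lost its call without the filter on low counts (1.05, adjusted p = 0.0871). With Vehic tags alone AQP1 had an adjusted p of 0.134 and HTR2C one of 0.155.

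Leaving out the choroid plexus-like cells changed the picture for HTR2C and CLIC6. Outside them, mean HTR2C was 51.3 CPM in 3DMono and 80.1 CPM in 2DMono, the reverse of the order over all cells, and CLIC6 was 0.227 to 2.48 CPM in 3DMono against 6.32 to 16.9 CPM in 2DMono, with no overlap. The edgeR test on the remaining cells called 8546 of 21738 genes (39.3%; groups without overlap 22.6%), among them 4 of 4 members that passed the filter. TTR was still higher in 3DMono, by 3.38 ± 0.51 (adjusted p = 0.00014). HTR2C fell by 1.08 on the log2 scale (SE 0.36, adjusted p = 0.0309), CLIC6 by 3.48 (SE 0.41, adjusted p = 1.64e-05) and PRLR by 0.68 (SE 0.15, adjusted p = 0.00276).

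The same turn was seen in the other pair, in which cluster 36 stayed among the cells compared. Without choroid plexus-like cells, 11120 of 22463 genes were called in 3DFusi against 2DCocu (49.5%). TTR was higher by 2.94 ± 0.63 (adjusted p = 0.000526), with means of 10.6 against 1.18 CPM. HTR2C fell by 1.15 (SE 0.30, adjusted p = 0.00271; means 46.4 against 92.1 CPM) and CLIC6 by 1.33 (SE 0.34, adjusted p = 0.00268; 2.48 against 5.08 CPM). AQP1 (0.81, adjusted p = 0.115) and PRLR (-0.21, adjusted p = 0.221) did not pass. TTR was thus the only 1 of the 6 genes called higher in organoids both with and without these cells in both pairs. In sums over the remaining cells, HTR2C and CLIC6 were higher in 2DMono and 2DCocu than in the organoids compared with them. CLIC6 was lower in 3DMono than in 2DMono with all cells as well. The remaining cells differed in makeup between formats. Cluster 13 held 1177 cells of 2DMono, with CLIC6 at 30.8 CPM and HTR2C at 166 CPM. Cluster 36 held 215 cells of 2DCocu, with CLIC6 at 63.9 CPM and HTR2C at 1858 CPM. The part of these clusters in the differences was not tested.

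**Figure D5:**
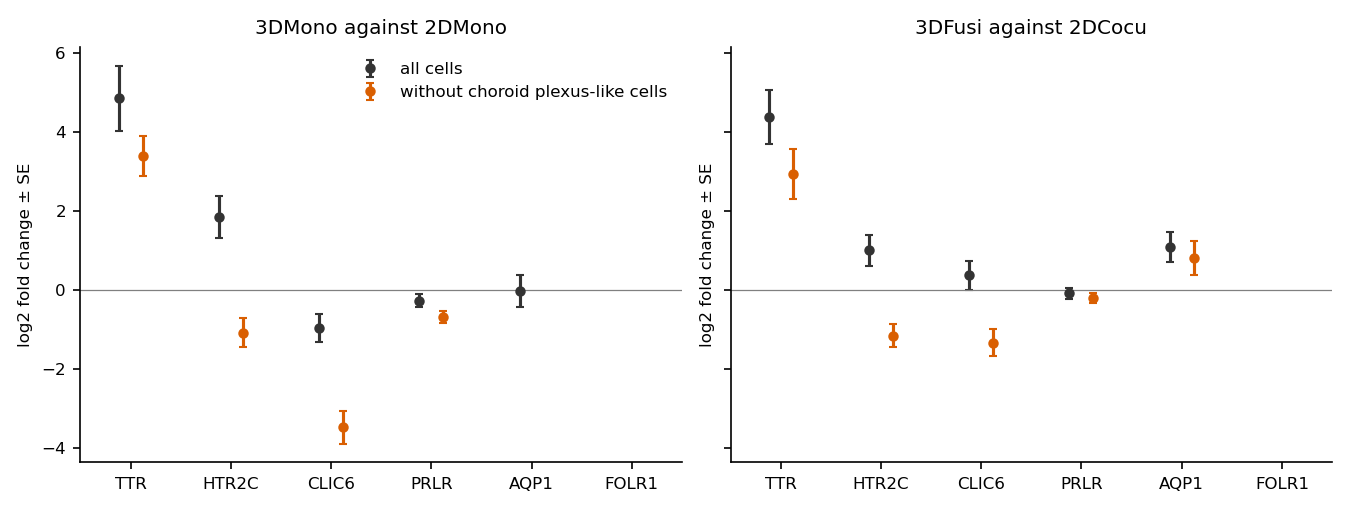
Log2 fold change of each gene that passed the filter (vertical axis, bars are ± 1 SE derived from edgeR's F, genes on the horizontal axis) in 3DMono against 2DMono and 3DFusi against 2DCocu, with all cells and without the choroid plexus-like cells. TTR lies between 2.94 and 4.84 in all 4 comparisons, and HTR2C moves from 1.84 and 1.00 to -1.08 and -1.15.

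Between arrangements of the same format 1 call was made among the 6 genes. In 3DFusi against 3DMono, over the AcMor and Vehic tags that both have (6 and 4), none of the 5 tested members was called by edgeR or DESeq2, with 0 at an unadjusted p under 0.05 in edgeR; 1.47% of all genes were called. TTR differed by -0.37 ± 0.99 (adjusted p = 0.900) and HTR2C by -1.15 ± 0.71 (adjusted p = 0.434). In 2DCocu against 2DMono, over 8 and 4 such tags, 29.9% of all genes and 1 of 5 members were called: CLIC6 fell by 1.39 (SE 0.33, adjusted p = 0.00627), with 5.61 against 13.5 CPM. The call of CLIC6 held without any 1 of the 12 tags. These comparisons share tags with those above.

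With all tags and the filter on low counts, no treatment moved a member past the threshold in edgeR. In 8 comparisons of a treatment with Vehic, edgeR called 0 members, beside 6.10% of all genes for AcCoc in 2DCocu (3.60% higher, 2.50% lower), 0.975% for AcMor in 2DCocu (0.685% higher, 0.290% lower) and 0.00% in each of the other 6. At an unadjusted p under 0.05 in edgeR there was HTR2C for AcCoc in 2DCocu and for AcDop and AcMor in 2DMono, PRLR for AcDop in 3DMono, and TTR and CLIC6 for AcMor in 3DMono and in 3DFusi. DESeq2 called 1 member in 1 of the 8 comparisons, TTR with AcMor in 3DMono (-4.70, adjusted p = 0.0302). In 2DMono TTR, AQP1 and FOLR1, and in 2DCocu AQP1 and FOLR1, were below edgeR's filter, as was FOLR1 in the organoids. The largest difference was that of TTR in 3DMono, 1.42 and 5.14 CPM with AcMor against 155 and 23.5 CPM with Vehic. The tags did not overlap, as for 36.3% of all genes there, and the log2 fold change was -4.86 ± 1.22 (adjusted p = 0.416). Tags did not overlap for 34.6% of all genes with AcDop in 3DMono and for 8.59% with AcMor in 2DCocu. In 3DFusi TTR differed by -3.09 ± 1.30 with AcMor (adjusted p = 1.00), with tags that overlapped.

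CLIC6 was 1.16, 4.30 and 0.982 CPM with AcMor in 3DFusi and 4.78 to 10.3 CPM with Vehic, without overlap, as for 5.27% of all genes. Its log2 fold change was -1.93 ± 0.58 (adjusted p = 1.00). In 3DMono it was -1.70 ± 0.66 (adjusted p = 0.526), and without AcMor tag 2 it became -2.94 (adjusted p = 0.0377). The receptor HTR2C differed from Vehic in 2DMono by -1.07 ± 0.23 with AcDop (adjusted p = 1.00) and by -0.94 ± 0.23 with AcMor (adjusted p = 0.774). Without the filter on low counts edgeR called HTR2C in both comparisons. Its treated tags lay below both Vehic tags, a lack of overlap that 22.6% and 41.2% of all genes had in these 2 comparisons. In 2DCocu it differed by -0.59 ± 0.25 with AcCoc (adjusted p = 0.175), and CLIC6 by -0.65 ± 0.35 (adjusted p = 0.298), the latter without overlap, as for 12.1% of all genes.

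No member passed the test of a different treatment response between formats in edgeR with the filter on low counts or in DESeq2. Without the filter edgeR called TTR for the AcDop response, and TTR and HTR2C for the AcMor response, of 3DMono against 2DMono. In the 4 interaction tests 0 of 5 members were called by edgeR and 0 of the 5 or 6 that DESeq2 tested, beside 0.00425% of all genes for AcCoc in 3DFusi against 2DCocu and 0.00% in the other 3. For TTR and AcMor the difference of responses between 3DFusi and 2DCocu was -3.80 ± 1.56 (adjusted p = 1.00), the only member at an unadjusted p under 0.05 in edgeR in these 4 tests.

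Genes of the same pathways were followed in lists chosen for this tissue, all values being log2 fold changes of genes past an edgeR adjusted p of 0.05. The 15 companion markers of choroid plexus moved in both directions. In 3DMono against 2DMono 2 of 13 tested were higher and 3 lower, with a median of 0.06. KRT18, a keratin of simple epithelia, fell by 2.46, OTX2 by 1.95 and LMX1A, a roof plate factor, by 1.94, and SLC4A5, a sodium bicarbonate cotransporter of this epithelium, rose by 0.69 on the log2 scale. In 3DFusi against 2DCocu 6 of 14 were higher and 2 lower, with a median of 0.09. KL, the co-receptor klotho, fell by 1.78, and MSX1 (1.38), TRPM3 (1.09) and ENPP2 (1.03) rose. Both medians were close to those of all genes, 0.03 and 0.04. Of all genes tested, 17.5% were called higher and 20.4% lower in the first pair, and 26.1% and 22.7% in the second.

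Signals of the dorsal midline had genes called in both directions. In 3DMono against 2DMono 10 of 13 fell and 2 rose, with a median of -1.67, beside 20.4% of all genes called lower, 17.5% higher and a median of 0.03. The largest changes were those of MSX2 (-3.93), BMP6 (-3.41), BMP5 (3.37) and WNT5A (-2.40). In 3DFusi against 2DCocu 7 of 13 fell and 4 rose, with a median of -0.58, beside 22.7% and 26.1% of all genes and a median of 0.04. The largest changes there were those of RSPO1 (-1.92), BMP5 (1.79), MSX2 (-1.78) and BMP6 (-1.62). Inside the choroid plexus-like cluster the 13 genes summed to 1867 CPM against 341.9 CPM outside, and RSPO2 alone made up 1230 CPM of the inside sum. Of the 13, 11 were higher inside, while BMP5 (8.95 against 12.9 CPM) and BMP6 (22.7 against 33.1 CPM) were lower.

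Of the genes that handle thyroid hormone and retinol, the cargo of transthyretin, 4 of 8 tested rose and 2 fell in 3DMono, with a median of -0.05, beside 17.5% and 20.4% of all genes. STRA6, the receptor for retinol-binding protein, rose by 2.17, SLCO1C1, a thyroxine transporter, by 0.69, and THRA, a thyroid hormone receptor, by 0.62. DIO2, which activates thyroxine and was named after its values were seen, fell by 0.60. In 3DFusi 3 of 8 rose and 1 fell, with a median of 0.14, beside 26.1% and 22.7% of all genes. SLCO1C1 rose by 1.63, STRA6 by 1.48 and DIO2 by 0.98. STRA6 and SLCO1C1 were called higher in both pairs.

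Of the fluid and ion transport genes 8 of 16 tested fell and 1 rose in 3DMono, with a median of -0.50, beside 20.4% of all genes called lower and 17.5% higher. The water channel AQP4 fell by 3.53 and the carbonic anhydrase CA12 by 1.63. AQP4 is also a marker of astrocytes, a list of which 5 of 7 tested genes fell in the same comparison (median -2.68), and it stood at 0.0789 CPM in the choroid plexus-like cells. The part of astrocytes in the change was not tested. In 3DFusi 7 of 15 fell and 2 rose, with a median of -0.32, beside 22.7% and 26.1% of all genes: CA2 fell by 1.11, CA12 by 0.72 and the bicarbonate transporter SLC4A10 by 0.68, while ATP1B2, a subunit of the sodium pump, rose by 0.74.

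Relatives of the receptors were read beside the share of all genes called lower, 20.4% in 3DMono and 22.7% in 3DFusi, and higher, 17.5% and 26.1%. Of 7 other serotonin receptors tested, HTR7 fell by 1.66 in 3DMono, and HTR1F (-1.35) and HTR2A (-0.53) were lower in 3DFusi. In the prolactin pathway 2 of 6 rose in 3DMono (17.5% of all genes), the growth hormone receptor GHR by 0.83 and the kinase JAK2 by 0.51. In 3DFusi 4 of 6 rose (26.1% of all genes): STAT5A by 1.47, SOCS2 by 0.68, GHR by 0.48 and JAK2 by 0.31, while PRLR itself did not pass in either. Of 8 folate genes SLC46A1, a proton-coupled folate transporter, rose by 0.73 and ALDH1L2, a mitochondrial folate enzyme, fell by 0.84 in 3DMono, and ALDH1L2 fell by 1.24 in 3DFusi.

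Likeness over the 46 tags (Spearman's rho of log2(CPM + 1)) and over the 38 clusters (Pearson's r) was computed for 20202 genes as a description; tags share the same 8 sublibraries, and both sets of points share depth and cell makeup. The genes most like TTR over tags were HDAC9 (0.783), NBPF10 (0.775) and KLHL14 (0.774), and over clusters PGM5P4-AS1 (0.750), WASH2P (0.709) and SLC13A4 (0.687). For HTR2C they were IRS4 (0.806), SLC4A5 (0.806) and RBM47 (0.792) over tags and MIR646HG (0.819), RSPO1 (0.806) and IRS4 (0.802) over clusters. For CLIC6 they were TRPM3 (0.781), RBM47 (0.756) and MIR646HG (0.722), and RBM47 (0.892), MIR646HG (0.871) and RSPO1 (0.868).

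HTR2C and CLIC6 were closer to each other (0.633 over tags, 0.8 over clusters) than either was to TTR. TTR had a rho of 0.606 with HTR2C and 0.324 with CLIC6 over tags, and an r of 0.402 and 0.518 over clusters. PRLR had a rho of 0.0445 with TTR over tags and an r of 0.315 over clusters. For AQP1 the likest genes were MGP over tags (0.661) and CYSTM1 over clusters (0.803), and for FOLR1 CYB5RL over tags (0.582) and PGM5P4-AS1 over clusters (0.824), at levels near the limit of detection.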

How the data were processed

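Single-cell RNA libraries of H1-derived cultures were measured as 8 sublibraries of 1 pool, with culture tags in the cell names giving 17 groups. The authors' deposited matrix holds estimated counts (expected counts, not normalized; 54.3% of entries whole, lowest 0.01); Salmon 1.7.0 with alevin, Seurat 4.1.1 and the build hg38 are named in the submitters' processing notes, without roles. In the deposited file every cell has at least 1006 genes and at most 10.0% mitochondrial counts.

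Counts were summed per tag, rounded to whole numbers and tested with edgeR 4.0.16 (TMM, filterByExpr, quasi-likelihood, robust option) in R 4.3.3, with Benjamini-Hochberg adjustment over all genes tested and a threshold of 0.05; DESeq2 1.42.0 was an alternative. Format comparisons had treatment as a covariate. The SE of a log2 fold change was derived as its absolute value over the square root of edgeR's F. The scripts were tested on simulated data. Cells were clustered with scanpy 1.11.5 (2000 variable genes without the 6 members, 30 components, 20 neighbours, Leiden resolution 0.8, with 0.4 and 1.2 as alternatives). A marker counted for a cluster at 10% of cells and a fold of 2 against the other cells, and a name needed 3 markers and 40% of its list. The name was withheld where another list had more genes among the 10 leading genes, as in cluster 36. It was also withheld from clusters mostly of doublets, and from shallow ones without an own marker among those genes. The choroid plexus-like cluster also had 7 of 8 ciliated markers in at least 10% of its cells. It took its name by a precedence of the choroid plexus list over the ciliated one, set after the clusters were seen. Doublets were called with Scrublet at Otsu's threshold and kept.

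All 6 members are named in each comparison, with up to 4 genes with the largest absolute change past the threshold from each companion list and the 3 genes most like each member; some genes that this rule names are not reported here. The members and lists were chosen with earlier results of these data known. Alternatives were RLE scaling, no filter, DESeq2, doublets removed, Vehic tags alone, 1 fit over 4 arrangements, the replicate block and leaving out each tag; the robust option switched off and leaving out tags in the first 2 format comparisons were chosen after seeing the data. Whether equal tag numbers mark a shared batch is not stated. In 3DFusi same-numbered tags deviated together, with each of 9 correlations above 0.1 (0.151 to 0.588), while different-numbered ones reached 0.377. In 3DMono all 6 same-numbered correlations were positive (0.0753 to 0.254), and different-numbered ones were at most -0.0753. Same-numbered correlations had both signs in 2DMono (-0.12 to 0.095) and in 2DCocu (-0.289 to 0.116). The main tests did not use these numbers.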

Additional observations from a re-analysis of the deposited data

Results flagged for a closer look

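Of 38 checks of groups of 4 tags for a tag far from the others, 3 flagged a tag; chance flags about 1 group in 20. AcCoc tag 3 of 3DFusi had HTR2C at 838.5 CPM, where the other 3 tags had a median of 239.9. The same tag had TTR at 22.78 CPM in cells without the other 5 genes, against a median of 3.364 in the others. AcCoc tag 1 of 2DCocu had 0.4449% choroid plexus-like cells, which is 4 cells of 899, against a median of 0.2326%. None of the 20 interaction tests of a member with edgeR and its filter on low counts passed the threshold.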

How the results depend on the processing

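TTR kept its direction and call in both format comparisons under every alternative run, except with Vehic tags only in 3DMono against 2DMono (6.27, adjusted p = 0.0700). CLIC6 in 3DMono against 2DMono lost its call with doublets removed and with Vehic tags only. The number of members called, 3, became 1 in 3DFusi against 2DCocu with Vehic tags only; leaving out 1 tag gave 1 to 3 there and in 3DMono against 2DMono. Where no member was called, edgeR without the filter on low counts called HTR2C for AcDop (adjusted p = 0.000969) and for AcMor (0.00372) in 2DMono. It called 2 members for AcMor in 3DMono, CLIC6 among them (adjusted p = 0.000755). For the AcDop response of 3DMono against 2DMono it called TTR (adjusted p = 0.0324). For the AcMor response it called TTR (1.6e-07) and HTR2C (0.000272). DESeq2 gave 1 for AcMor in 3DMono, and leaving out 1 tag gave 0 to 1. Pearson's r of TTR outside the cluster with its share passed with doublets removed (2DMono 0.9895, 3DFusi 0.6795) or with any entry above 0 counted (0.9714 and 0.7307), whereas Spearman's rho did not (adjusted permutation p from 0.0889 to 0.182); without 2 tags r was 0.469 to 0.783. The causes were not tested.

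All reversals were of values below the threshold. In 3DMono against 2DMono, PRLR became 0.079 with Vehic tags only and AQP1 0.012 without the filter; TTR became -0.0055 in 2DCocu against 2DMono with doublets removed. Leaving out 1 tag gave AQP1 -0.42 to 0.13 in 3DMono against 2DMono; TTR -1.88 to 0.68 and PRLR -0.15 to 0.13 in 3DFusi against 3DMono; and TTR -0.14 to 0.75 and HTR2C -0.051 to 0.25 in 2DCocu against 2DMono. With AcCoc in 3DFusi it gave TTR -0.55 to 3.65, PRLR -0.27 to 0.029 and AQP1 -1.12 to 0.11, and with AcMor TTR -4.02 to 0.39. In 2DMono it gave CLIC6 -0.25 to 0.13 and PRLR -0.47 to 0.057 with AcDop, and CLIC6 -1.28 to 0.088 with AcMor. In 3DMono it gave TTR -2.03 to 0.88, CLIC6 -1.04 to 0.034 and AQP1 -1.11 to 0.085 with AcDop, and AQP1 -2.78 to 0.11 with AcMor. Where this left 1 tag in a group, that tag is assumed to vary like the others.

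With the replicate block 0 members were called in each of the 8 treatment comparisons, and no call changed. In 3DFusi, where same-numbered tags deviated together, the blocked values with AcMor were -2.35 for TTR and -2.13 for CLIC6. With AcCoc they were 1.31 for TTR and, in the other direction than without the block, 0.013 for PRLR. The number of all genes called moved by over 1.5 times with Vehic tags only (8297 to 3247 in 3DMono against 2DMono, 10987 to 6019 in 3DFusi against 2DCocu) and in 3DFusi against 3DMono (350 to 628 without the filter, 1525 with DESeq2). For AcCoc in 2DCocu 1283 became 2010 with DESeq2 and 0 in 1 fit over the 4 arrangements; for AcMor there 205 became 391 without the filter, 696 with DESeq2, 43 with the block and 0 in 1 fit. Where 0 or 1 gene had been called, no filter gave 0 to 747, DESeq2 0 to 173, the block 0 to 36 and 1 fit 0 to 3. Beyond these, 498 values of single members kept direction and call. A further 139 values that answer a comparison stayed the same, where a number of members called counted as the same within 1.5 times. Such numbers ran from 2 to 4 in 3DMono against 2DMono, and from 4 to 5 there without the choroid plexus-like cells. Shares of positive cells move with depth: FOLR1 fell to 0.0229% at 3000 counts per cell, so its absence from a cell says little.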
